A study of Mus musculus with 6 samples.

Results

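The genes described here are 41 mouse genes of fatty acid and glycerolipid synthesis, chosen by symbol. They are the enzymes that make fatty acids and their regulator Srebf1, the desaturases and elongases, the acyl-CoA synthetases, the acyltransferases and phosphatases that build phosphatidate and triglyceride, enzymes of phospholipid synthesis and remodelling, and the lysophosphatidic acid receptor Lpar1. Of the 41, 39 had a row of that symbol among the 23225 genes of the deposited count table, and all 39 passed the filter on low counts, which left 15958 genes to test. Gpam and Dgat1 had no row of that symbol. A row named Dgat, an older symbol of Dgat1, is described with its values and is not counted among the 39.

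The RNA came from dendritic cells, the antigen-presenting cells that prime T cells, sorted out of ID8-based ovarian tumours and ascites of C57BL/6 mice at day 23. ID8 is a mouse ovarian epithelial tumour line that grows in the peritoneal cavity. There were 3 libraries from wild-type mice (WT) and 3 from mice with a conditional knockout that removes XBP1 from cells positive for CD11c (XBP1-KO), a surface integrin that many dendritic cells carry and that some macrophages carry as well. Whether each sample came from its own animal is not given by the labels, so p-values cover only the spread among these 6 libraries, which may be technical. The columns carry no replicate number, and the libraries of a genotype are called a, b and c in column order, a letter that pairs nothing.

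XBP1 is a transcription factor of the unfolded protein response. The endoplasmic reticulum sensor IRE1 splices its mRNA, and the spliced form drives genes for protein folding, secretion and, in liver, fatty acid synthesis. The lipogenic pathway starts from citrate, which Acly cleaves to acetyl-CoA. Acaca carboxylates acetyl-CoA to malonyl-CoA, and Fasn builds palmitate from it. Elongases and desaturases then lengthen the chain and add double bonds, acyl-CoA synthetases activate the free fatty acid, and acyltransferases load it onto glycerol 3-phosphate to give lysophosphatidate and phosphatidate. Lipins dephosphorylate phosphatidate to diacylglycerol, from which the DGAT enzymes make triglyceride and other enzymes make phospholipids. The study is known for asking whether XBP1 in tumour-associated dendritic cells bears on their lipid content. It singled out Fasn, Scd2, Agpat6 and Lpar1 on these same samples, so the direction of these 4 genes here is no independent evidence.

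Libraries held 26946349 to 32709100 counts. Levels are given as CPM, counts per 1000000 of the library size scaled by TMM factors, and as mean ± SD over the 3 libraries of a genotype. Xbp1 itself read 67.2, 48.7 and 76.8 CPM in WT a, b and c and 32.5, 30.9 and 40.4 CPM in XBP1-KO a, b and c, with no overlap and an edgeR adjusted p of 0.0545. Counts per gene do not separate transcripts with the deleted part from those without it. The first principal component held 33.5% of the variance. Along it WT b, at 9.6, lay nearer the XBP1-KO libraries (15.8 to 37.5) than WT a (-32.8) and WT c (-59.5). Along the second principal component, which held 22.2% of the variance, 2 libraries, WT b at 38.3 and XBP1-KO b at 30.1, lay away from the other 4. Those 4 were themselves spread from -45 to -1. All 11 genes that mark dendritic cells were present, at very different levels. The antigen presentation genes led, with Cd74 at 84376 ± 21488 CPM in WT and 69900 ± 11982 in XBP1-KO and H2-Aa at 13257 ± 3209 and 11585 ± 1803, while the lineage genes Flt3 (35.9 ± 12.6 and 32.5 ± 14.4), Batf3 (32.6 ± 6.36 and 34.8 ± 12.6) and Zbtb46 (8.66 ± 0.225 and 7.39 ± 0.680) were far lower. Itgax, which encodes CD11c, lay higher in XBP1-KO without overlap (103 ± 7.95 and 146 ± 14.2 CPM, edgeR adjusted p = 0.106). Ciita, the activator of class II genes, lay lower without overlap (189 ± 26.0 and 136 ± 6.33 CPM, edgeR adjusted p = 0.131), as did Zbtb46, and none of the 11 was called. Of the 11, 8 lay lower and 3 higher, with a median log2 fold change of -0.23. Xcr1 (102 ± 59.6 and 66.3 ± 46.9 CPM) and Irf4 (89.4 ± 31.4 and 62.5 ± 25.6) overlapped. The markers beside Cd74 and H2-Aa were named after their values were seen. The macrophage genes Lyz2 (15673 ± 5258 and 13882 ± 1730 CPM) and Cd68 (1029 ± 127 and 1050 ± 80) were also present in both genotypes.

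Some marker genes of other blood cells moved with the genotype, and their part in the results below was not tested. The 12 T and NK cell markers summed to 154 to 164 CPM in WT and 230 to 349 CPM in XBP1-KO. Of these 12, 11 lay higher and 3 rose, namely the granule gene Nkg7 (20.4 ± 4.92 to 69.4 ± 20.6 CPM), the receptor Ncr1 (6.68 ± 1.56 to 19.3 ± 7.38) and the T cell receptor chain Cd3e (5.403 ± 1.61 to 16.2 ± 3.56), with edgeR adjusted p-values of 0.0201, 0.0489 and 0.0227. The 2 most abundant of them, Klrb1c (54.0 ± 8.16 and 59.6 ± 9.41 CPM) and Cd2 (40.7 ± 17.4 and 54.1 ± 11.5), overlapped. The 5 B cell markers summed to 130 to 312 and 336 to 487 CPM, again without overlap, led by Cd79b (72.9 ± 28.3 and 127 ± 23.7) and Ms4a1 (67.6 ± 32.4 and 115 ± 17.7). The 6 neutrophil markers in the table summed to 24.0 to 149 and 104 to 278 CPM, led by S100a8 (24.7 ± 22.3 and 88.8 ± 24.7) and S100a9 (17.3 ± 14.5 and 54.8 ± 15.0). The 5 mast cell markers summed to 112 to 176 and 133 to 185 CPM, of which the proteases Cma1, Tpsb2 and Cpa3 rose from 14.5 ± 1.05 to 34.4 ± 8.29, 13.4 ± 1.92 to 28.5 ± 7.65 and 9.68 ± 0.390 to 22.3 ± 7.21 CPM and Kit read 102 ± 35.5 and 63.5 ± 5.99. The dendritic cell sums (75077 to 122330 and 70250 to 99997 CPM) and the macrophage sums (11886 to 21330 and 14872 to 17991) overlapped, and Cd74 makes up most of the dendritic cell sum.

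Adipocyte markers were close to 0. The 6 adipocyte genes in the table summed to 0.954 to 1.98 CPM in WT and 0.695 to 1.91 CPM in XBP1-KO, with the hormones Lep at 0.605 ± 0.560 and 0.660 ± 0.652 and Adipoq at 0.256 ± 0.176 and 0.223 ± 0.196. Endothelial genes summed to 9.75 to 17.6 and 10.5 to 16.6 CPM, mostly Pecam1 (10.2 ± 3.203 and 9.97 ± 3.35), with Kdr at 1.03 ± 0.233 and 1.09 ± 0.182. Fibroblast genes summed to 41.9 to 46.4 and 42.1 to 63.7 CPM, mostly Dcn (39.1 ± 2.89 and 45.1 ± 12.2), with Pdgfra at 2.03 ± 0.461 and 2.22 ± 0.866. The tumour epithelial genes summed to 125 to 168 and 106 to 186 CPM, led by the keratins Krt19 (60.4 ± 11.1 and 54.2 ± 14.1) and Krt18 (27.4 ± 5.41 and 30.9 ± 9.10). These 4 sums overlapped between the genotypes, and no gene of any of the 10 marker lists with a row was at 0 in all 6 libraries.

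Among the 39 members, Agpat4 fell in XBP1-KO and no other member passed the test. Agpat4 encodes a lysophosphatidate acyltransferase, which adds the second fatty acid of phosphatidate. The background over all genes tested was 46 genes called lower (0.288%) and 25 called higher (0.157%), at an edgeR adjusted p under 0.05. At an unadjusted p under 0.05, 11 members lay lower and 1 higher, against a background of 8.26% lower and 4.59% higher. In 11 members all 3 XBP1-KO libraries lay below all 3 WT libraries, against 10.4% of all genes, and in 3 members they all lay above, against 8.8%. Of the 39 members, 23 had a log2 fold change below 0, against 43.9% of all genes, and their median was -0.09, beside 0.06 over all genes. The Agpat4 call is thus 1 of 39, and the shares of members lying lower stood above the shares over the table. The members were chosen with earlier results of these data known. Fasn, Scd2, Agpat6 and Lpar1, singled out by the study on these samples, are among the 11 lower at an unadjusted p under 0.05. The higher shares are thus no independent evidence that the members as a set lay lower. The RNA is from bulk samples, in which fewer cells of a type and less RNA per cell cannot be told apart.

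**Figure D1:**
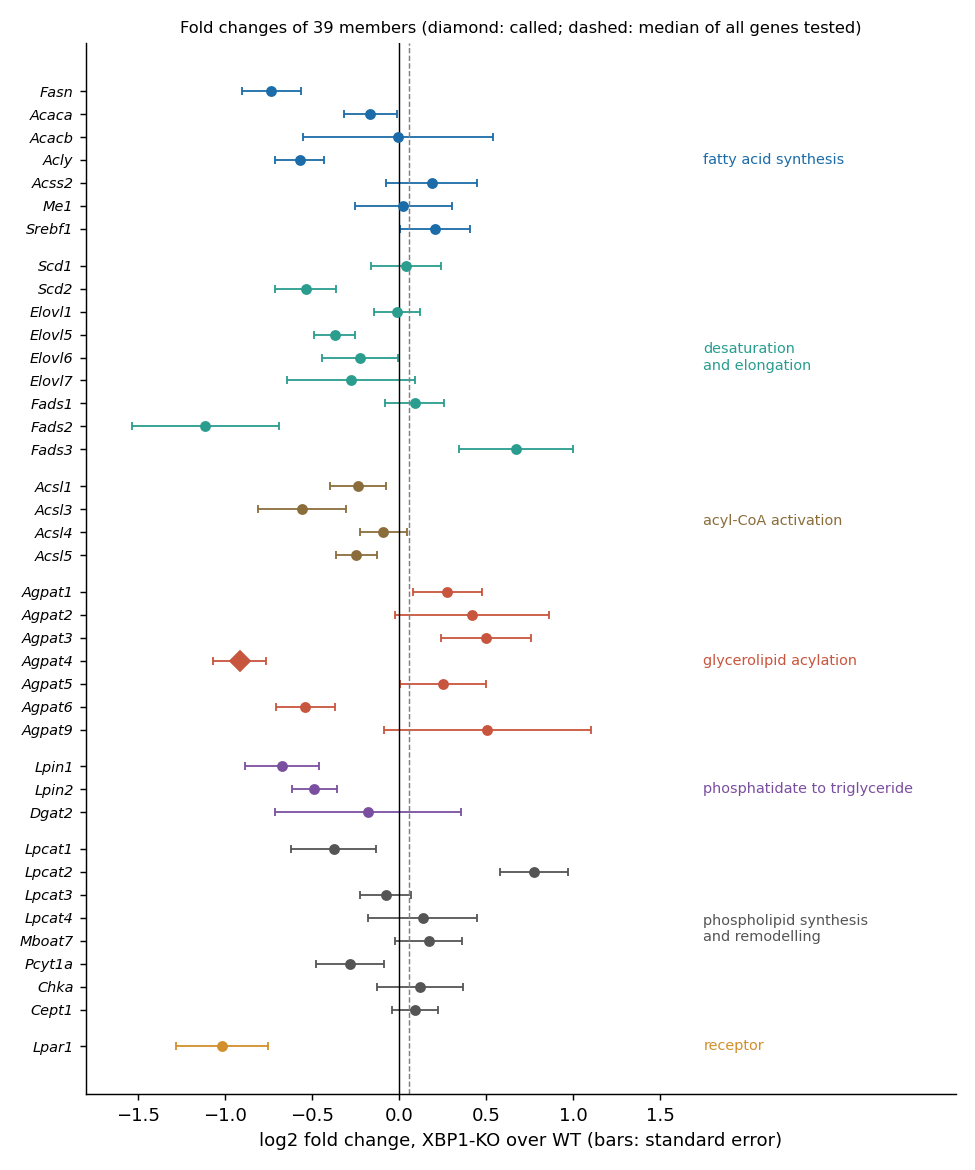
The log2 fold change of XBP1-KO over WT (horizontal axis, bars are the standard error) is plotted for the 39 members, grouped and coloured by class. Agpat4, the diamond at -0.92, is the called gene, all 4 acyl-CoA synthetases and all 3 genes of the phosphatidate to triglyceride class lie below 0, and 5 of 7 acylation genes lie above it.

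Promoters of 6 members are shown because XBP1 is a sequence-specific factor. They are 5 of the 11 members that lay lower without overlap, with Lpcat2, which lay higher, for contrast, and they were picked after their values and motifs were seen. Promoter windows were read from RefSeq (GRCm38.p6), 250 bases before to 50 after each annotated start, and 34 of the 41 members matched, with 49 windows. Agpat5, Agpat6, Dgat1, Dgat2, Fads1, Scd1 and Scd2 had none. The 250 upstream bases are printed 5′ to 3′ on the gene's strand, in lower case. Capitals mark, on either strand, the E-box CACGTG, the unfolded protein response element TGACGTGG with its core ACGTGG, the sterol regulatory element TCACNCCAC and the CCAAT box CCAAT, where the E-box and the core can share bases. The 6 are Agpat4 (chr17:12119034-12119283, plus strand), Fasn (chr11:120824548-120824797, minus), Acly (chr11:100528001-100528250, minus), the Lpin2 window with an E-box (chr17:71183282-71183531, plus), Lpcat1, the member with the whole response element (chr13:73466981-73467230, plus), and Lpcat2 (chr8:92855083-92855332, plus).
Agpat4: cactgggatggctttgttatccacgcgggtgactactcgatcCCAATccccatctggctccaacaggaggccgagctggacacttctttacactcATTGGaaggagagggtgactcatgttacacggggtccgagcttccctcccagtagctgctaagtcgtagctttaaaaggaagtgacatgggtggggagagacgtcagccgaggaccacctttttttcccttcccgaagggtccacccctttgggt
Fasn: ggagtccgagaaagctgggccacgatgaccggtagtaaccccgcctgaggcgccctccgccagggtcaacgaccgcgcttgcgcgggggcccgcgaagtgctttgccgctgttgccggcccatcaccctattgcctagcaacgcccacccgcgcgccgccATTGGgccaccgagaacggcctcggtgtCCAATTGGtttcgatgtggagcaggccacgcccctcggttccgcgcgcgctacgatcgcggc
Acly: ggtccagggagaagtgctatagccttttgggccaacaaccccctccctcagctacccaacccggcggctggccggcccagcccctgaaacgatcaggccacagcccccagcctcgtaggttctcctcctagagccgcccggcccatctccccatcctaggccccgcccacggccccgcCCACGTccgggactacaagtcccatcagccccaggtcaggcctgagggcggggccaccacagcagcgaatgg
Lpin2: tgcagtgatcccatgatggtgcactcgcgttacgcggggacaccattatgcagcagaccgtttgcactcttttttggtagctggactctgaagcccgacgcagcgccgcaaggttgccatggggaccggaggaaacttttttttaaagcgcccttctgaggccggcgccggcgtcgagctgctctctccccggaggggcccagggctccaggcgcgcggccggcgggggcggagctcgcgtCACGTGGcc
Lpcat1: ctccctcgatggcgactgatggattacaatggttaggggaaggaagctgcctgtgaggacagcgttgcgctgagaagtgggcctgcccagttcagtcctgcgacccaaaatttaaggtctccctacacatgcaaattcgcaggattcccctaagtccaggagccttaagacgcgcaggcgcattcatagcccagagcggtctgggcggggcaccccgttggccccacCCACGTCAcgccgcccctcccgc
Lpcat2: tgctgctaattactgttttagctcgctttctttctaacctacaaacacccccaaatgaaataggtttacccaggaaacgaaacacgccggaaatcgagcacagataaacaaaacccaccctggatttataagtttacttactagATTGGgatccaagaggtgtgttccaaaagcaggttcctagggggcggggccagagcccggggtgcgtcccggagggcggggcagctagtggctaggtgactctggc

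These letters differed from gene to gene. The Fasn promoter held 3 CCAAT boxes, at -90, -62 and -59 from the start, of which the last 2 overlap, and Agpat4 held 2, at -208 and -155. Lpin2 held an E-box at -9 that overlaps a core at -8, Acly a core at -72, Lpcat1 the whole response element at -23 and Lpcat2 a CCAAT box at -106. Of the 11 members that lay lower without overlap, 3 held the core (Acly, Lpcat1 and Lpin2), and the called gene Agpat4 did not. The core was also found in Agpat3 and Cept1, which are not printed and whose log2 fold changes lay above 0 (0.50 and 0.09, both with overlap). The sterol regulatory element was found in none of the 11 members without overlap that lay lower, and elsewhere in Acsl1 and Pcyt1a. Over all 32851 windows of the table, 7.15% held the E-box, 0.676% the response element, 8.31% its core, 1.24% the sterol element, 37.4% the CCAAT box and 35.7% the GC box GGGCGG. Of the members' 49 windows, 2 held the E-box, 1 the response element, 6 the core, 3 the sterol element, 22 the CCAAT box and 32 the GC box, and windows of 1 gene can overlap. A match in a window is a description of its letters.

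In the fatty acid synthesis class, Fasn and Acly differed most between the genotypes. Both lay lower in XBP1-KO, and neither was called. The 7 genes of the class split into 4 below and 3 above a log2 fold change of 0, with 2 lower at an unadjusted p under 0.05 and a median of -0.01, which lay at 0.05 with upper quartile factors and with library size alone. Fasn, the fatty acid synthase, read 29.0, 34.4 and 42.5 CPM in WT a, b and c and 20.5, 20.7 and 22.3 CPM in XBP1-KO a, b and c. All 3 WT libraries lay above all 3 XBP1-KO libraries, which differed little among themselves. The mean was 35.3 ± 6.80 and 21.2 ± 0.996 CPM, and the log2 difference was -0.74 (SE 0.17, edgeR adjusted p = 0.0815). Acly, the ATP citrate lyase that supplies cytosolic acetyl-CoA, read 212, 280 and 233 CPM in WT and 164, 179 and 144 CPM in XBP1-KO. The genotypes did not overlap, and the difference of -0.57 (SE 0.14, edgeR adjusted p = 0.0921) did not pass.

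The other steps of the class differed less. Acaca, the acetyl-CoA carboxylase of the cytosol, read 24.7, 26.2 and 24.1 CPM in WT and 23.2, 22.8 and 20.9 CPM in XBP1-KO. Its genotypes did not overlap, but the log2 difference was -0.17 (SE 0.15, edgeR adjusted p = 0.680). Srebf1, which encodes the sterol-regulated factor SREBP-1 that drives lipogenic genes in many tissues, read 8.16, 7.96 and 9.08 CPM in WT and 9.59, 9.11 and 10.3 CPM in XBP1-KO. It lay in the opposite direction to Fasn and Acly, with a gap of a few hundredths of a CPM between WT c and XBP1-KO b, and its log2 difference was 0.20 (SE 0.20, edgeR adjusted p = 0.705). Acacb, the mitochondrial carboxylase, was low at 0.963 ± 0.567 and 0.957 ± 0.178 CPM. Acss2, which activates acetate, read 4.86 ± 0.428 and 5.54 ± 1.19 CPM, and the malic enzyme Me1, a source of NADPH, 17.9 ± 2.46 and 18.2 ± 8.13 CPM, both with overlap.

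**Figure D2:**
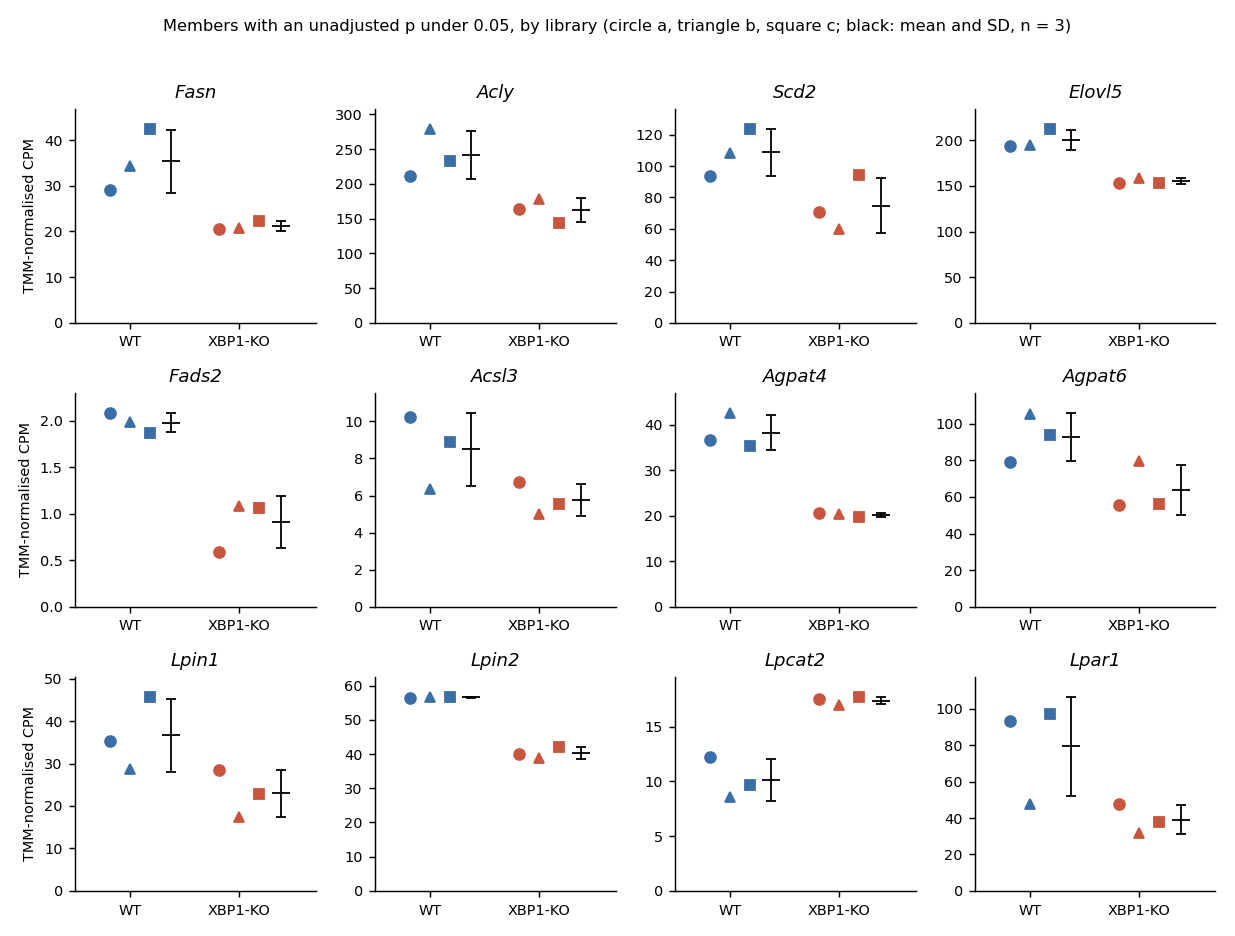
TMM-normalised CPM (vertical axis, from 0) is shown by library for the 12 members with an unadjusted p under 0.05, WT in blue and XBP1-KO in red, with mean and SD (n = 3) in black. Agpat4 and Lpin2 show gaps between tight groups, while Scd2, Acsl3 and Agpat6 overlap and the gap of Lpar1 rests on WT b at 47.9 and XBP1-KO a at 47.7 CPM.

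Among the desaturases and elongases, 6 of 9 lay lower and 3 higher, with 3 lower at an unadjusted p under 0.05 and a median log2 fold change of -0.23. Scd2, a stearoyl-CoA desaturase that makes monounsaturated fatty acids, read 93.8, 108 and 124 CPM in WT and 70.7, 59.6 and 94.3 CPM in XBP1-KO. XBP1-KO c lay just above WT a, and the log2 difference was -0.54 (SE 0.17, edgeR adjusted p = 0.203). The related desaturase gene Scd1 read 24.7 ± 4.92 and 25.4 ± 5.74 CPM with a difference of 0.04 (SE 0.20). How the authors' counting treated reads that match both genes is not given, and whether such reads bear on this pair was not tested. Per kb of the longest coding transcript in a GENCODE annotation of GRCm38, Scd2 stood at 19.9 and Scd1 at 5.12 CPM per kb in WT, and at 13.7 and 5.26 in XBP1-KO.

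The elongase Elovl5, which lengthens polyunsaturated chains, was among the most abundant members and lay lower. It read 193, 195 and 213 CPM in WT and 153, 159 and 154 CPM in XBP1-KO. The genotypes were separated by a gap wider than the spread within XBP1-KO, with a log2 difference of -0.37 (SE 0.12, edgeR adjusted p = 0.181). Elovl1, which lengthens very long saturated chains and had the highest mean of the members over all 6 libraries (in WT alone Acly was higher), read 224, 185 and 233 CPM in WT and 207, 232 and 198 CPM in XBP1-KO. Its genotypes overlapped throughout, with a difference of -0.01 (SE 0.13) whose sign turned under 9 of 17 other settings. Elovl6, which takes palmitate to stearate, read 10.9 ± 0.990 and 9.30 ± 1.98 CPM and Elovl7 2.51 ± 0.532 and 2.08 ± 0.659 CPM, both with overlap. Per kb of the longest transcript, Elovl1 (118 CPM per kb in WT) stood above Elovl5 (72.0). Over the median transcript length the order was the reverse, at 165 and 314 CPM per kb, so the order of the pair depends on the length taken.

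The front-end desaturases differed from each other. Fads2, the delta-6 desaturase of polyunsaturated fatty acid synthesis, read 2.08, 1.98 and 1.87 CPM in WT and 0.586, 1.08 and 1.06 CPM in XBP1-KO, from 59, 56 and 56 counts against 16, 32 and 35. All XBP1-KO libraries lay below all WT libraries at this low level, with a log2 difference of -1.11 (SE 0.42, edgeR adjusted p = 0.280). Fads3 read 1.87, 2.58 and 1.57 CPM in WT and 2.96, 3.27 and 3.37 CPM in XBP1-KO. Its libraries were separated in the opposite direction, with a difference of 0.67 (SE 0.33, edgeR adjusted p = 0.419). Fads1, the delta-5 desaturase, read 22.1 ± 1.80 and 23.6 ± 3.52 CPM and overlapped.

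All 4 acyl-CoA synthetases, which activate fatty acids for every later step, had a log2 fold change below 0 (median -0.24), and 1 of them an unadjusted p under 0.05. Acsl5 read 120, 124 and 116 CPM in WT and 95.8, 103 and 105 CPM in XBP1-KO. Its genotypes did not overlap, with a log2 difference of -0.25 (SE 0.12, edgeR adjusted p = 0.414). Acsl3, an isoform of lipid droplets and the endoplasmic reticulum, read 10.2, 6.34 and 8.88 CPM in WT and 6.73, 5.03 and 5.52 CPM in XBP1-KO. XBP1-KO a lay above WT b, and the difference was -0.56 (SE 0.25, edgeR adjusted p = 0.374). Acsl4, which prefers arachidonate and was the most abundant of the 4, read 190, 221 and 217 CPM in WT and 224, 173 and 192 CPM in XBP1-KO, with the highest and the lowest value both in XBP1-KO and a log2 difference of -0.09 (SE 0.13) that was 0.01 without WT b and XBP1-KO b. Acsl1 read 33.9 ± 5.52 and 28.8 ± 0.496 CPM, with WT a below the XBP1-KO libraries.

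The acyltransferases of phosphatidate synthesis held the called gene, and most of the class lay the other way. Agpat4 read 36.7, 42.7 and 35.4 CPM in WT a, b and c and 20.6, 20.3 and 19.8 CPM in XBP1-KO a, b and c. Every WT library lay well above every XBP1-KO library, and the XBP1-KO libraries were within 1 CPM of each other. Agpat4 fell from 38.2 ± 3.90 to 20.2 ± 0.420 CPM, which is 47.1% lower in the fit, at a log2 difference of -0.92 (SE 0.15, edgeR adjusted p = 0.0242). Over 17 other settings its adjusted p ran from 1.47e-05 to 0.116 and passed in 8. With 1 library left out, it passed only without XBP1-KO b (0.0357). It missed the threshold when a WT library was left out (0.0513 for a, 0.0662 for b and 0.116 for c) and when XBP1-KO a (0.0734) or its library c (0.0927) was, while the log2 difference stayed between -0.97 and -0.86.

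Agpat6, also named Gpat4, a glycerol 3-phosphate acyltransferase of the endoplasmic reticulum, read 78.8, 105 and 94.0 CPM in WT and 55.7, 79.5 and 56.2 CPM in XBP1-KO. XBP1-KO b lay above WT a and the other XBP1-KO libraries below all WT libraries. The log2 difference was -0.54 (SE 0.17, edgeR adjusted p = 0.177). Of the 6 fits with 1 library left out, Agpat6 passed only without XBP1-KO b (0.0459), and its largest edgeR adjusted p was 0.477. The other 5 acylation genes had a log2 fold change above 0 and overlapped, which put the median of the class at 0.28. The lysophosphatidate acyltransferases Agpat1, Agpat2, Agpat3 and Agpat5 read 12.9 ± 0.753 and 15.6 ± 3.13, 1.54 ± 0.668 and 2.06 ± 0.655, 10.8 ± 3.45 and 15.2 ± 3.07, and 25.0 ± 10.5 and 29.8 ± 1.62 CPM in WT and XBP1-KO. Agpat9, a glycerol 3-phosphate acyltransferase now named Gpat3, read 1.495 ± 0.489 and 2.13 ± 1.56 CPM. Per kb of the longest coding transcript, Agpat4 (20.0) and Agpat6 (16.8 CPM per kb) stood far above Agpat1 (5.88), Agpat5 (2.32) and Agpat3 (1.80) in WT. Over the median transcript length Agpat4 (47.9) and Agpat6 (29.4) again stood highest, with Agpat1, Agpat5 and Agpat3 at 6.74, 3.67 and 4.52.

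All 3 genes from phosphatidate to triglyceride lay lower, 2 of them at an unadjusted p under 0.05, with a median log2 fold change of -0.49. Lpin2, a phosphatidate phosphatase, read 56.3, 56.6 and 56.8 CPM in WT and 40.04, 38.7 and 42.0 CPM in XBP1-KO. The WT libraries were nearly equal and lay above every XBP1-KO library, with a difference of -0.49 (SE 0.13, edgeR adjusted p = 0.111). Lpin1, the phosphatase first known from lipodystrophic mice, read 35.4, 28.7 and 45.8 CPM in WT and 28.6, 17.5 and 22.9 CPM in XBP1-KO. WT b lay only just above XBP1-KO a, and the difference was -0.67 (SE 0.21, edgeR adjusted p = 0.193). Dgat2, which makes triglyceride, was low at 2.01 ± 0.891 and 1.78 ± 1.11 CPM. It overlapped, with a difference of -0.18 that was smaller than its error (SE 0.54, edgeR adjusted p = 0.912). The row named Dgat read 13.2, 14.1 and 8.95 CPM in WT and 5.86, 11.3 and 10.04 CPM in XBP1-KO, with overlap and a difference of -0.42 (SE 0.27, edgeR adjusted p = 0.555).

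In phospholipid synthesis and remodelling, 3 of 8 genes lay lower and 5 higher, with a median of 0.11. Lpcat2, a lysophosphatidylcholine acyltransferase that also makes platelet-activating factor, read 12.3, 8.53 and 9.65 CPM in WT and 17.5, 16.97 and 17.7 CPM in XBP1-KO. It was the member with the clearest separation in the higher direction, with a log2 difference of 0.78 (SE 0.19, edgeR adjusted p = 0.0977). Lpcat1, another acyltransferase of lysophosphatidylcholine, read 5.26, 5.88 and 6.25 CPM in WT and 4.32, 4.62 and 4.46 CPM in XBP1-KO. Its genotypes did not overlap in the lower direction, with a difference of -0.38 (SE 0.24, edgeR adjusted p = 0.557). The other 6 overlapped. Cept1, which joins choline or ethanolamine to diacylglycerol, read 150 ± 10.3 and 160 ± 21.4 CPM, and Pcyt1a, the rate-limiting enzyme of phosphatidylcholine synthesis, 63.9 ± 13.3 and 52.4 ± 12.3. Lpcat3, which puts polyunsaturated chains into phosphatidylcholine, read 32.4 ± 2.78 and 30.7 ± 1.32 CPM, and Lpcat4 4.16 ± 0.860 and 4.56 ± 1.48. The choline kinase Chka read 17.6 ± 4.69 and 19.1 ± 5.63 CPM and Mboat7, which acylates lysophosphatidylinositol, 14.6 ± 2.39 and 16.5 ± 2.01.

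Lpar1 is a G protein-coupled receptor for lysophosphatidate, the intermediate that lysophosphatidate acyltransferases such as Agpat4 consume. It read 93.3, 47.9 and 97.1 CPM in WT a, b and c and 47.7, 31.8 and 37.9 CPM in XBP1-KO a, b and c. WT a and c lay far above the rest, while WT b stood a fraction of a CPM above XBP1-KO a. The log2 difference was -1.02 (SE 0.26, edgeR adjusted p = 0.138). Of the 6 fits with 1 library left out, Lpar1 passed only without WT b (0.0407), and its largest edgeR adjusted p was 0.397. WT b also had the lowest sum of macrophage markers (11886 CPM), of which Lyz2 made up 9614. Its dendritic cell sum was the lowest of the WT libraries (75077 CPM), of which Cd74 made up 59850. Single markers of these lists went both ways among the WT libraries. Csf1r (644 CPM) and Flt3 (50.4) were highest in WT b, and Cd68 (885) and Cd209a (1272) were lowest there. These were picked after their values were seen, and whether any of this bears on Lpar1 was not tested.

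Levels of the same genes were also summed by class. The 7 genes of fatty acid synthesis summed to 296, 375 and 329 CPM in WT and 241, 248 and 231 CPM in XBP1-KO, a sum in which Acly is the largest term. The 9 desaturases and elongases summed to 583, 546 and 634 and to 493, 507 and 521 CPM. The 3 genes from phosphatidate to triglyceride summed to 93.2, 86.7 and 106 and to 70.7, 56.7 and 67.6 CPM. In these 3 classes every WT sum lay above every XBP1-KO sum, under each of 4 scalings. The acyl-CoA synthetases (347 to 389 and 310 to 355 CPM), the acylation genes (161 to 213 and 140 to 165) and the phospholipid genes (292 to 309 and 293 to 326) overlapped. The 4 scalings use the same 6 libraries, and the share of other gene sums without overlap was not computed. Fasn and Scd2, singled out by the study on these samples, are terms of the fatty acid synthesis sum and of the desaturase and elongase sum. The sums are carried by their most abundant genes and are given as a description.

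**Figure D3:**
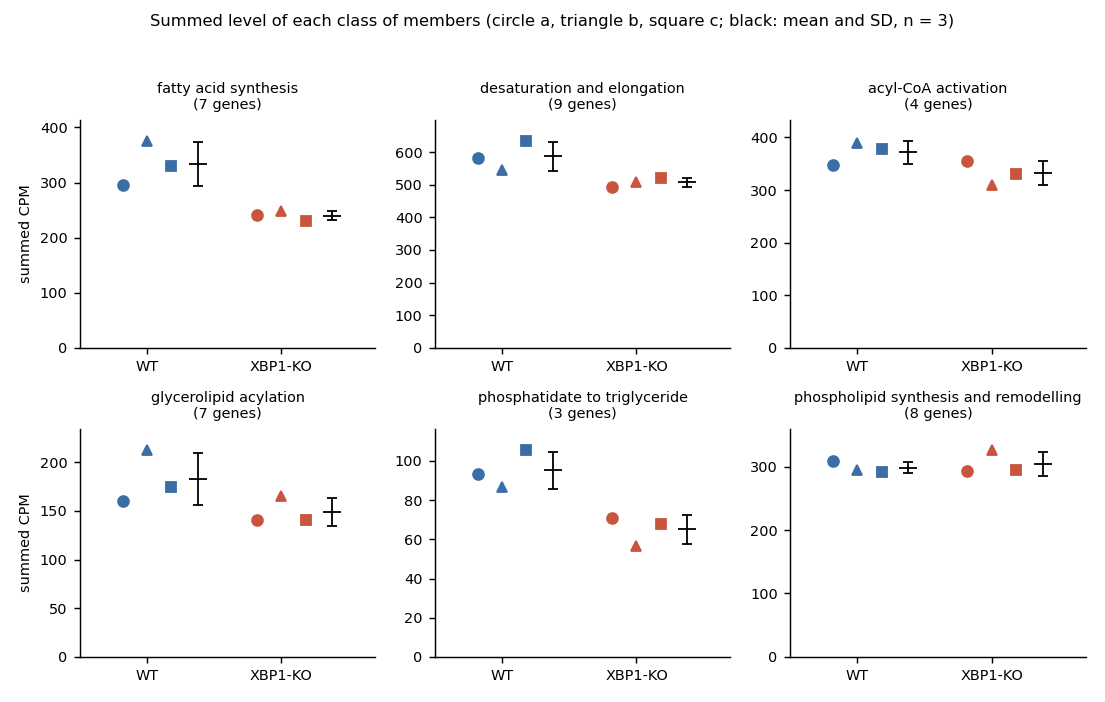
Summed CPM (vertical axis, from 0) is plotted by library for the 6 classes with more than 1 gene, with mean and SD (n = 3) in black. The WT and XBP1-KO points do not overlap for fatty acid synthesis, desaturation and elongation, and phosphatidate to triglyceride, and they overlap in the other 3 panels.

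Ratios within a library compare paired genes without the scaling between libraries. The ratio of Scd2 to Scd1 counts was 3.35, 5.69 and 4.57 in WT and 3.03, 2.84 and 2.96 in XBP1-KO. That of Fads1 to Fads2 was 11.6, 10.5 and 11.4 in WT and 37.1, 19.8 and 26.0 in XBP1-KO, and that of Srebf1 to Srebf2, the sterol-regulated factor of cholesterol synthesis, was 0.326, 0.224 and 0.301 and then 0.346, 0.391 and 0.365. These 3 ratios did not overlap between the genotypes, and the share of other gene pairs without overlap was not computed. Acaca to Acacb (49.9, 16.4 and 30.1 against 30.1, 23.3 and 18.6) and Dgat to Dgat2 (8.31, 9.98 and 2.95 against 2.76, 20.9 and 3.76) overlapped. The denominators Fads2, Acacb and Dgat2 held few counts per library (16 to 59, 14 to 45 and 16 to 91), which limits what their ratios show. A ratio within a library shows unequal change of the pair and does not show which gene moved.

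**Figure D4:**
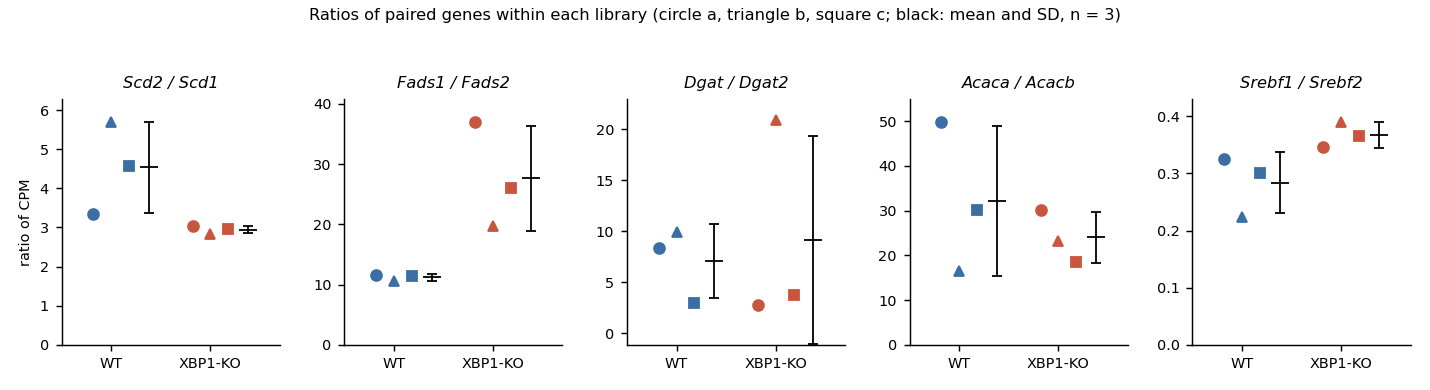
Ratios of CPM (vertical axis) are plotted for 5 pairs of genes in each library, WT in blue and XBP1-KO in red, with mean and SD (n = 3) in black, where the SD of Dgat to Dgat2 in XBP1-KO reaches below 0. Scd2 to Scd1 is lower in all 3 XBP1-KO libraries and Fads1 to Fads2 and Srebf1 to Srebf2 are higher in all 3, while the other pairs overlap.

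Other genes of lipid synthesis, taken from 4 lists of 76 genes, gave no call by edgeR. Over all genes tested, 43.9% had a log2 fold change below 0. At an unadjusted p under 0.05, 8.26% lay lower and 4.59% higher. In the glycerolipid and phospholipid list, 20 of 28 tested genes lay lower and 8 higher (median -0.13), with 4 lower at an unadjusted p under 0.05. Lclat1, which acylates lysocardiolipin and other lysophospholipids, read 27.1 ± 1.73 CPM in WT and 16.8 ± 2.68 in XBP1-KO with no overlap (edgeR adjusted p = 0.0987), and Pcyt1b, an isoform of the Pcyt1a enzyme, 3.09 ± 0.504 and 1.55 ± 0.421 (0.250). The precursor and chain elongation list held 12 of 18 genes lower and 6 higher (median -0.05) and none under an unadjusted p of 0.05, with the pentose phosphate enzymes Pgd (151 ± 11.6 and 122 ± 24.8 CPM) and G6pdx (207 ± 28.1 and 173 ± 8.5) at the smallest p. The lipogenic regulators lay lower in 5 of 15 and higher in 10 (median 0.11), with none under an unadjusted p of 0.05. Among them the SREBP protease Mbtps1 (53.8 ± 11.3 and 43.2 ± 7.45 CPM) and the SREBP retention factor Insig2 (28.0 ± 3.36 and 23.3 ± 4.65) had the smallest p. Of the 6 other lysophosphatidate signalling genes 4 lay higher, of which the receptor Lpar6 read 142 ± 2.54 and 174 ± 13.6 CPM without overlap (edgeR adjusted p = 0.310) and Lpar4 1.09 ± 0.560 and 1.67 ± 1.05.

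The separation of the members depended in part on how libraries were scaled. With DESeq2 size factors 12 members lay lower without overlap and 2 higher (10.4% and 8.65% of all genes), with upper quartile factors 8 and 3 (8.18% and 11.7%), and with library size alone 10 and 3 (6.25% and 13.7%). Against TMM, the median of all genes moved from 0.06 to 0.11 with upper quartile factors and to 0.14 with library size alone, and the members with a log2 fold change below 0 went from 23 to 21 and 20, since Acacb and Elovl1 turned under both and Lpcat3 under library size alone. Fasn, Acly, Elovl5, Fads2, Agpat4, Lpin2 and Lpcat1 were separated in the lower direction, and Fads3 and Lpcat2 in the higher one, under each of these 4 scalings. DESeq2 called 5 members lower (Acly, Agpat4, Fasn, Lpar1 and Lpin2) and Lpcat2 higher, in a table in which it called 463 genes in all against 71 by edgeR. With WT b and XBP1-KO b given a term of their own, 7 members were lower and Lpcat2 higher, of 426 calls. The 7 were the same 5 with Agpat6 and Lpin1. WT b and XBP1-KO b lay apart on the second principal component of these same data, and no label names a batch.

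**Figure D5:**
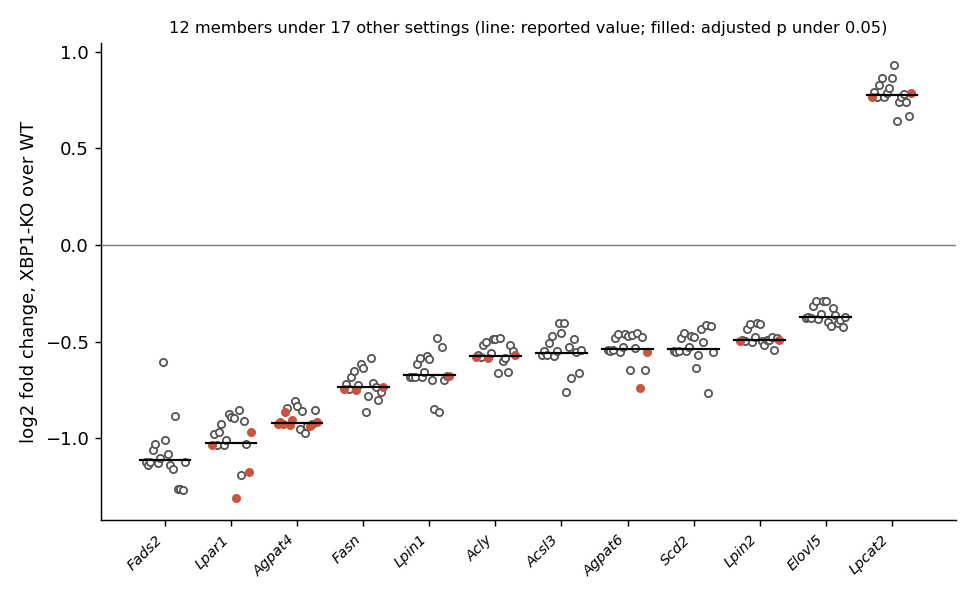
The log2 fold change of XBP1-KO over WT (vertical axis) is plotted for 12 members under 17 other settings (points), with the reported value as a line and filled points where the adjusted p was under 0.05. Each of the 12 stays on its side of 0, and Agpat4 has the most filled points, 8 of 17.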

How the data were processed

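The authors deposited a table of whole-number gene counts, not normalized, and a second table of CPM values for 13946 genes. RSEM, edgeR and mm9, a mouse build, appear in the list of tools and builds per the submitters' processing notes, without version or role. RSEM estimates need not be whole, and how whole numbers were reached is not given in the sources used here, nor are the strand setting, annotation and sort gate. The CPM the authors deposited equal each count over its library's total within 5.1e-11.

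The count test was run in edgeR 4.0.16 under R 4.3.3 (filterByExpr defaults, TMM factors, robust quasi-likelihood fit with genotype as the only term, two-sided F test). The 15958 p-values were adjusted together by Benjamini-Hochberg, with calls under 0.05. The SE is the log2 fold change over the square root of F. The test was checked on simulated counts. Libraries held 26946349 to 32709100 counts, so that the spread between libraries limits the precision of all but genes with few counts, such as Fads2.

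The members and lists were chosen with earlier results of these data known. By the rule for named genes, values in each library are given for members that were called, had an unadjusted p under 0.05, did not overlap between genotypes or were among the 3 with the highest mean CPM, and the 2 of each other lipid list with the smallest p and the 2 most abundant and the called genes of each marker list are named. Alternatives were DESeq2 1.42.0, limma-voom (limma 3.58.1), 3 other scalings, 2 other filters, limma on log2 of the deposited CPM plus a pseudocount of 1 or 0.1, each library left out, and WT b and XBP1-KO b left out or given a term. Coordinates of mm9 were not used. Promoters are from RefSeq and transcript lengths from GENCODE, both on GRCm38.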

Additional observations from a re-analysis of the deposited data

How the results depend on the processing

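No paired analysis was possible because the columns of the tables carry no replicate number. The count of 71 calls over the table and the call of Agpat4 depended on the setting, and the cause was not tested. Leaving out a library also makes its group smaller, so it does not single out a cause. Genes called numbered 463 with DESeq2, 47 with limma-voom, 25 with library size alone and 252 with no filter on low counts. They numbered 25 and 13 with limma on the deposited CPM plus 1 and plus 0.1. A term of their own for WT b and XBP1-KO b (the added term) gave 426. No label names a batch, and these 2 libraries lay apart on the second principal component of these same data. With 1 library left out, genes called numbered 5 (without WT c) to 154 (without XBP1-KO b). Members called lower numbered 5 with DESeq2, 3 with no filter (Acly, Agpat4 and Fasn) and 7 with the added term. They numbered 0 with library size alone and with the deposited CPM at either pseudocount. With 1 library left out they numbered 0 to 2, where the 1 without WT b is Lpar1. Members called higher numbered 1 with DESeq2 and 1 with the added term. Other lipid genes called numbered 1 with DESeq2 and with the added term (Lclat1). With 1 library left out they numbered 0 to 1, the 1 being Gyk without XBP1-KO b. The median log2 fold change of the members was -0.036 with upper quartile factors, -0.018 with library size alone, -0.015 with the deposited CPM at either pseudocount, and -0.159 to -0.091 with 1 library left out. Of the 19 members with values in each library, 17 kept their direction under the 17 alternatives. Elovl1 lay above 0 with upper quartile factors (0.045), library size alone (0.078), a filter at a CPM of 1 in 2 libraries (0.003) and the deposited CPM at either pseudocount (0.074), and ranged from -0.134 to 0.052 with 1 library left out, with 4 of the 6 values above 0 (0.022, 0.052, 0.005 and 0.013). Acsl4 lay at 0.012 without WT b and XBP1-KO b. Overlap was not recomputed with libraries left out, since smaller groups overlap less. Counts under 100 in each of the 6 libraries, as for Fads2, Agpat2 and Dgat2, limit what can be read from those genes.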
